A study of Mus musculus with 10 samples.

Results

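The aryl hydrocarbon receptor (AHR) pathway was followed through 7 genes, Ahr, Ahrr, Arnt, Cyp1a1, Cyp1b1, Tiparp and Nqo1, in bulk RNA of innate lymphoid cells (ILCs) sorted from the skin of adult mice. The genes were picked by symbol, and each matched 1 of the 47643 gene rows of the deposited tables. The 10 libraries came from the B6 strain and fell into 4 populations: 3 from epidermal ILCs, 2 from dermal CCR6+ ILCs, 2 from dermal Sca1+ ILCs and 3 from subcutaneous ILCs. All groups shared strain, stage and tissue, and the labels name no treatment, genotype, age in weeks or pooling of animals. CCR6 is a chemokine receptor and Sca1 a surface protein of the Ly6 family, both used here as sort markers. No source used here says whether replicates were separate animals. The p-values thus set group differences only against the scatter between these libraries, and that scatter may be technical.

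AHR is a transcription factor that waits in the cytoplasm, bound to chaperones, until a small aromatic molecule from food, microbes, pollutants or tryptophan breakdown binds it. It then enters the nucleus, pairs with ARNT and switches on genes that hold its short DNA element, among them the enzymes CYP1A1 and CYP1B1, which break down such ligands, and the inhibitors AHRR and TIPARP, which shut the receptor off again. In mice AHR is known to be needed by gut ILCs that make interleukin 22 and by the gamma delta T cells that reside in the epidermis.

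The stretches just upstream of 4 classic AHR-induced genes, Tiparp, Cyp1a1, Cyp1b1 and Ahrr, are shown because their RNA is the readout of the pathway in the rest of the text. They are the 250 bases before the RefSeq start of each gene on build GRCm38.p6, printed 5′ to 3′ on the strand of the gene, with the core of the AHR-ARNT element, GCGTG or its reverse complement CACGC, in capitals. Tiparp lies at chr3:65528197-65528446 (plus strand), Cyp1a1 at chr9:57697363-57697612 (plus), Cyp1b1 at chr17:79715062-79715311 (minus) and Ahrr at chr13:74292332-74292581 (minus).
Tiparp: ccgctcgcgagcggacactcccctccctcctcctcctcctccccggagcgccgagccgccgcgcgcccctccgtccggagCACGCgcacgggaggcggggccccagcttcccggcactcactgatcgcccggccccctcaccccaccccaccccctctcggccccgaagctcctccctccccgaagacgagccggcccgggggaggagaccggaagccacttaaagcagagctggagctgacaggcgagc
Cyp1a1: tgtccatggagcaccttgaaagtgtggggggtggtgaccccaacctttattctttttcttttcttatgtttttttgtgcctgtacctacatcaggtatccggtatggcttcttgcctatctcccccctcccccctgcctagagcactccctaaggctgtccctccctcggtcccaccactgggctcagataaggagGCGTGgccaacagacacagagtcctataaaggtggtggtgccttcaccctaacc
Cyp1b1: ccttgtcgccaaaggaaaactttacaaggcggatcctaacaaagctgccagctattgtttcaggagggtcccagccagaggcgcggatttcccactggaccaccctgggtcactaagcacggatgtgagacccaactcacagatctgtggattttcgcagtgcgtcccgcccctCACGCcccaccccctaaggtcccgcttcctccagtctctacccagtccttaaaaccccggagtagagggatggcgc
Ahrr: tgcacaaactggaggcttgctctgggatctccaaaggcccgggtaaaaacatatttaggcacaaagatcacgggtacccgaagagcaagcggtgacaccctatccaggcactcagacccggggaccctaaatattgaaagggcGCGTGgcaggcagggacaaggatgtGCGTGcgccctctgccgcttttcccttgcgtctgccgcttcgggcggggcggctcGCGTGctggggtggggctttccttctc
The core occurred once in Tiparp, with its first base at position -170 from the start, once in Cyp1a1 at -54 and once in Cyp1b1 at -76. Ahrr held 3 cores, at -107, -82 and -27, and 1 match to the longer form TNGCGTG. Arnt held 1 core at -29 and Nqo1 held 0, while Nqo1, Cyp1a1 and Cyp1b1 held 0 matches to the NRF2 element TGANNNNGC (both strands searched for each motif, and every TNGCGTG contains a GCGTG). For scale, 28.2% of 32851 promoter windows of the same length held at least 1 core, 8.63% held at least 2, 4.1% held the longer form and 35.2% held the NRF2 element.

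Library totals ran from 11627222 to 18118544 expected counts, with 14983 to 19376 genes detected. All 11 ILC identity genes checked, among them Il7r, Thy1 and Id2, were present in every population. Genes of other skin cells differed sharply by layer. The summed level of 18 keratinocyte genes was 5861 to 21021 TPM (transcript share corrected for gene length) in epidermal, 2123 to 2507 in dermal CCR6+, 2296 to 2383 in dermal Sca1+ and 98.5 to 222.5 in subcutaneous libraries. The summed level of 16 macrophage, dendritic and Langerhans cell genes ran the other way. It was 553 to 819.9 TPM in epidermal and 1692 to 2037 in dermal CCR6+ libraries. In dermal Sca1+ libraries it was 1763 to 3709 and in subcutaneous ones 6824 to 12200 TPM. Mrc1, Itgax and Fcgr1 were at 0 in all epidermal libraries. Cd207, the Langerhans cell gene of that list, went against the sum. It had counts in epidermal ILCs but 0 in all dermal Sca1+ and subcutaneous libraries. For epidermal over subcutaneous ILCs Cd207 was not called (edgeR adjusted p = 0.137). The 14 fibroblast genes summed to 10.7 to 25.2 TPM in epidermal and 1432 to 2161 in subcutaneous libraries, with Pdgfra and Twist2 at 0 in the epidermal ones. T cell genes, 17 of 18 of them measured, summed to 2152 to 2545 TPM in epidermal and 2496 to 2712 in dermal CCR6+ libraries. Their sum was 1920 to 2007 in dermal Sca1+ and 1440 to 1911 TPM in subcutaneous libraries. Cd8a was at 0 in all epidermal and all dermal Sca1+ libraries. Of these 17, 1 was called higher and 2 lower in epidermal than in subcutaneous ILCs by edgeR. Over all genes tested, 6.87% were called higher and 13.3% lower there. The higher one was Trdv4, a gamma delta T cell receptor segment, at 309.7 ± 70.8 TPM in epidermal and 119.9 ± 12.4 TPM in subcutaneous ILCs (SD, n = 3 each, edgeR adjusted p = 0.00740). The lower ones were Cd28 (log2 fold change -3.30, edgeR adjusted p = 2.41e-05) and Tcrg-C1, a T cell receptor gamma gene (-2.45, edgeR adjusted p = 0.000763). Trdc, a T cell receptor delta gene, was not called (1.01, edgeR adjusted p = 0.548). The part of these cells' RNA in the values below was not tested, and in bulk RNA fewer cells of a type and less RNA per cell cannot be told apart.

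The receptor, its partner and the inhibitor Tiparp were clearly transcribed in all 10 libraries, whereas the classic target enzymes Cyp1a1 and Cyp1b1 were low and uneven, and the repressor Ahrr was near the detection limit. By mean level over the libraries the order was Tiparp at 145.4 TPM, Arnt at 19.6, Ahr at 10.6, Nqo1 at 5.55, Cyp1a1 at 1.43, Cyp1b1 at 1.23 and Ahrr at 0.042 TPM. Among populations, Tiparp was lower in epidermal than in subcutaneous ILCs, while Ahr had its highest mean in epidermal ILCs without passing the test. That Tiparp difference was the only 1 of 36 tests (6 genes in 6 comparisons) with an edgeR adjusted p under 0.05, and 20.2% of all 16208 genes tested were called in the same comparison. Ahrr did not pass the filter on low counts and was not tested.

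**Figure D1:**
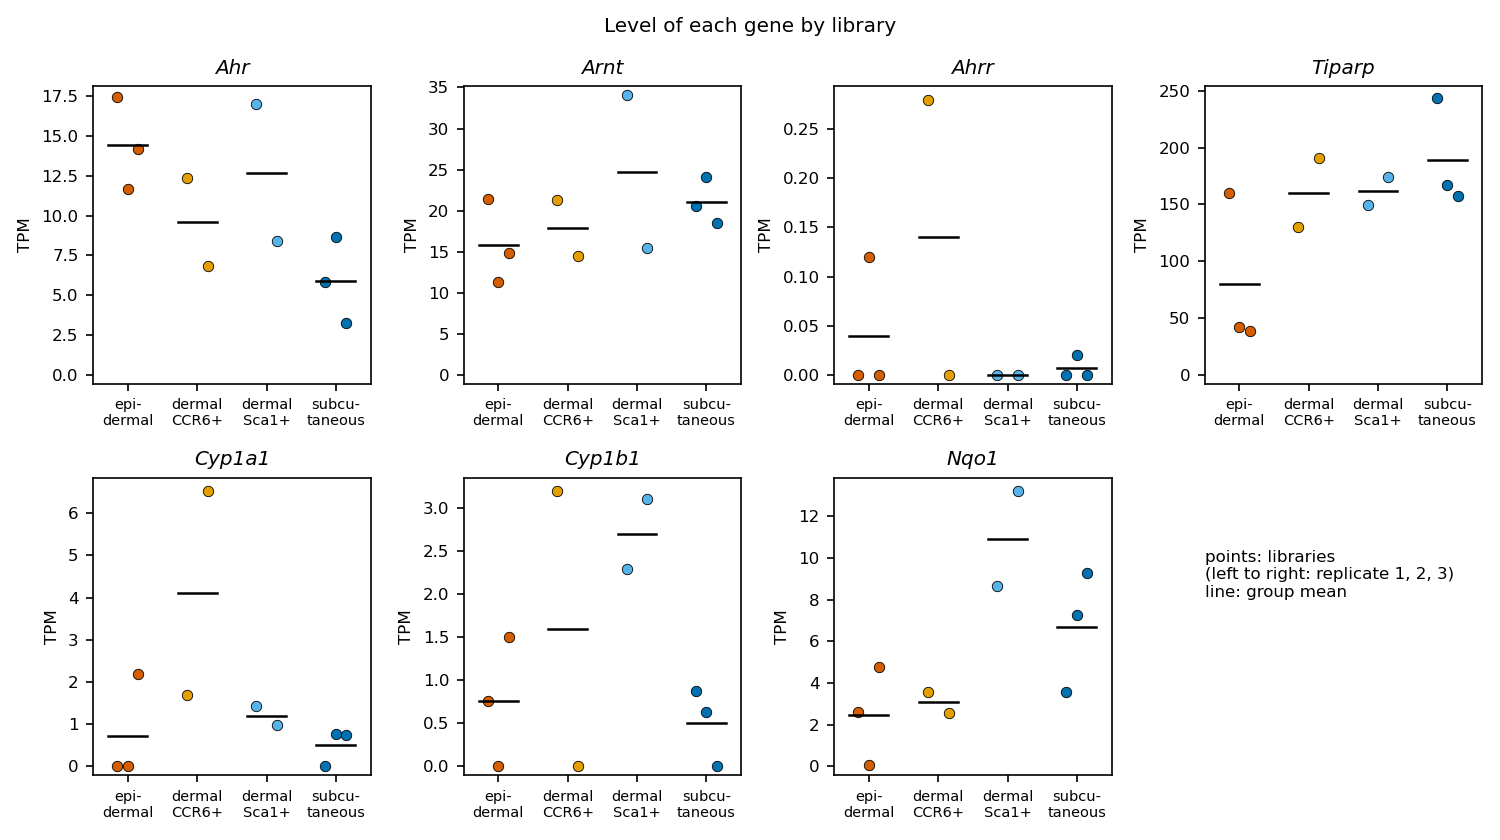
Level of each of the 7 genes in TPM (vertical axis, own scale per gene) in the 10 libraries, by population, with epidermal at the left and subcutaneous at the right. Points are libraries in replicate order and lines are group means. Tiparp averaged 80.4 TPM in epidermal and 189.5 TPM in subcutaneous ILCs, Ahr 14.4 and 5.92 TPM, and Ahrr, Cyp1a1 and Cyp1b1 had libraries at 0.

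Ahr, the receptor itself (chromosome 12, 35497974 to 35535038, minus strand, GENCODE M21 on GRCm38), was present in every library. Its level was 17.4, 11.7 and 14.2 TPM in epidermal ILCs, 12.4 and 6.82 in dermal CCR6+, 17.01 and 8.39 in dermal Sca1+, and 5.84, 8.66 and 3.27 TPM in subcutaneous ILCs. All 3 epidermal libraries lay above all 3 subcutaneous ones, and the dermal libraries spanned the range between. Of the gamma delta T cell genes, Trdv4 was higher and Tcrg-C1 lower in epidermal than in subcutaneous ILCs. Whether RNA of such cells had a part in the Ahr level was not tested. The means were 14.4 ± 2.88 TPM in epidermal (SD, n = 3), 9.59 ± 3.92 in dermal CCR6+ (n = 2), 12.7 ± 6.10 in dermal Sca1+ (n = 2) and 5.92 ± 2.70 TPM in subcutaneous ILCs (n = 3). Ranked by level, epidermal was followed by dermal Sca1+, dermal CCR6+ and subcutaneous, and no neighbours in that ranking differed beyond their spread. From the counts (1118, 718 and 1202 in epidermal, against 361, 595 and 197 in subcutaneous libraries), the log2 fold change of Ahr was 1.07 ± 0.40 (SE), with an edgeR adjusted p of 0.0911. In the other 5 comparisons its log2 fold change lay between -0.23 (dermal CCR6+ over dermal Sca1+) and 0.86 (dermal Sca1+ over subcutaneous), none with an edgeR adjusted p under 0.05. Of the 16208 genes tested, 21.7% lay higher in every epidermal than in every subcutaneous library by TPM, a pattern Ahr thus shared with many genes. Without subcutaneous replicate 2, Ahr reached a log2 fold change of 1.51 and an edgeR adjusted p of 0.0383. Limma on log2 TPM with a pseudocount of 1 gave 1.22 and an adjusted p of 0.0464.

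Arnt, the partner that AHR needs to bind DNA and that also serves the hypoxia factors (chromosome 3, 95434388 to 95497240, plus strand), was the flattest of the 7. It measured 21.4, 11.3 and 14.9 TPM in epidermal ILCs, 21.2 and 14.4 in dermal CCR6+, 34.0 and 15.4 in dermal Sca1+, and 20.6, 24.1 and 18.5 TPM in subcutaneous ILCs. The ranges of all 4 populations overlapped, and the single highest value was dermal Sca1+ replicate 1. Means were 15.9 ± 5.13 TPM in epidermal, 17.8 ± 4.82 in dermal CCR6+, 24.7 ± 13.2 in dermal Sca1+ and 21.1 ± 2.82 TPM in subcutaneous ILCs (SD). The lowest mean was thus the epidermal one and the highest the dermal Sca1+ one, with no neighbours in rank apart by more than their spread. The largest change in size was epidermal over dermal Sca1+, with a log2 fold change of -0.75 and an edgeR adjusted p of 0.2315. For epidermal over subcutaneous it was -0.64 ± 0.33 (SE), with an edgeR adjusted p of 0.213.

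Tiparp encodes a mono-ADP-ribosyltransferase that AHR induces and that in turn marks and inactivates AHR (chromosome 3, 65528410 to 65555518, plus strand). Its level was 160.4, 42.2 and 38.5 TPM in epidermal ILCs, 129.9 and 190.9 in dermal CCR6+, 149.3 and 174.1 in dermal Sca1+, and 244.0, 167.4 and 157.2 TPM in subcutaneous ILCs. Epidermal replicates 2 and 3 were the lowest of all 10 libraries, but epidermal replicate 1 lay above the lowest subcutaneous library, so the ranges overlapped. Group means were 80.4 ± 69.3 TPM in epidermal, 160.4 ± 43.1 in dermal CCR6+, 161.7 ± 17.6 in dermal Sca1+ and 189.5 ± 47.4 TPM in subcutaneous ILCs (SD). The last 3 were within their spread of each other. The summed keratinocyte genes also split the epidermal libraries, at 5861 TPM in replicate 1 against 20982 and 21021 TPM in replicates 2 and 3. In subcutaneous ILCs replicate 1 was instead highest both in Tiparp and in that sum, at 222.5 TPM. The part of keratinocyte RNA in the Tiparp level was not tested.

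The Tiparp difference between epidermal and subcutaneous ILCs came to -1.42 ± 0.41 (SE) on the log2 scale, or 2.68-fold lower, with an edgeR adjusted p of 0.0351. It was the 1 gene called of the 6 tested, with 0 called higher and 1 lower, beside 6.87% of all genes called higher and 13.3% lower. Against dermal CCR6+ ILCs Tiparp had a log2 fold change of -1.18 ± 0.45 in epidermal ILCs, with an edgeR adjusted p of 0.170. Against dermal Sca1+ ILCs the value was -1.19 ± 0.45, with an edgeR adjusted p of 0.121. The dermal and subcutaneous populations were close, at log2 fold changes of -0.02 (dermal CCR6+ over dermal Sca1+), -0.25 (dermal CCR6+ over subcutaneous) and -0.23 (dermal Sca1+ over subcutaneous).

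The call for Tiparp depended on the libraries. It was lost without any 1 of 6 libraries (epidermal replicate 2 or 3, dermal Sca1+ replicate 1, or any of the 3 subcutaneous replicates), where the log2 fold change ran from -1.13 to -1.49 and the edgeR adjusted p from 0.0502 to 0.103. Without epidermal replicate 1 the log2 fold change was -2.19 and the edgeR adjusted p 0.000209.

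**Figure D2:**
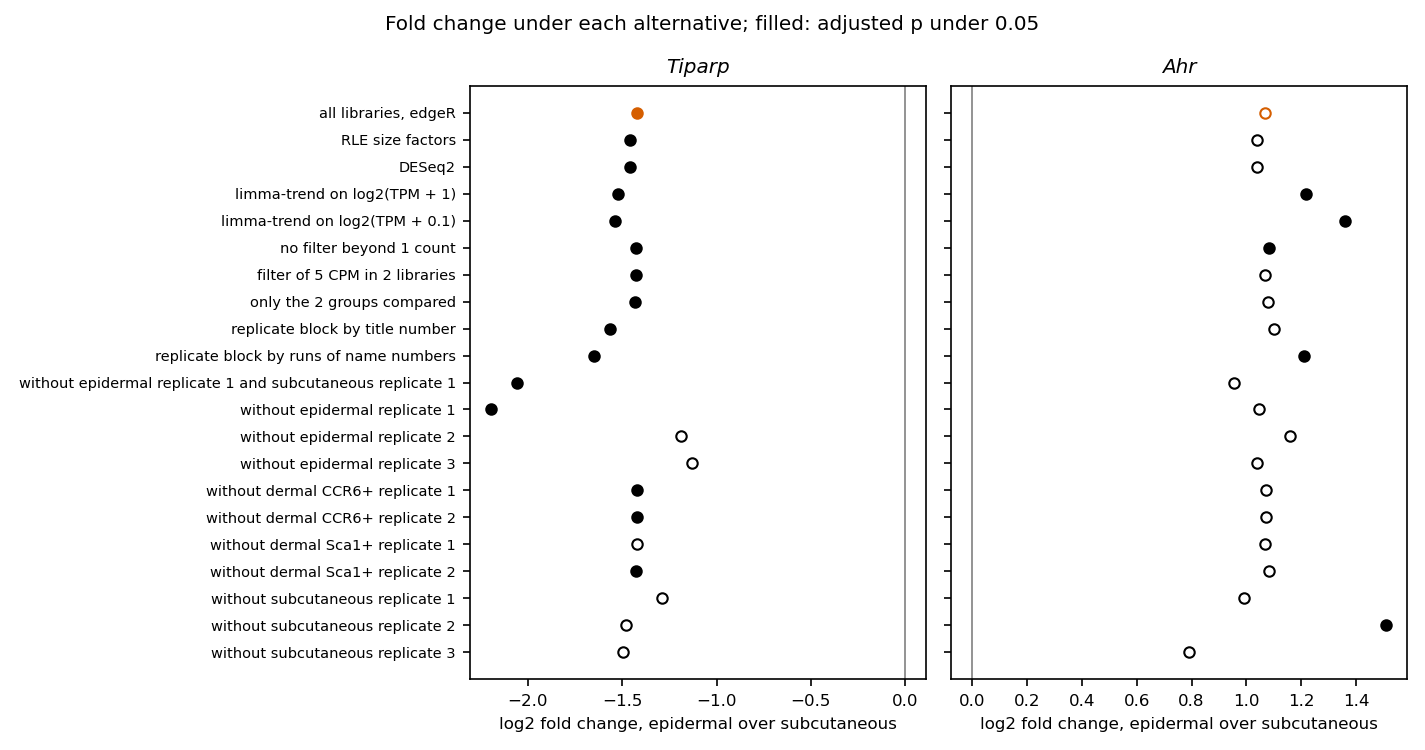
Log2 fold change of epidermal over subcutaneous ILCs (horizontal axis) for Tiparp (left) and Ahr (right) under the reported fit (orange, top row) and each alternative (black). Filled points have an adjusted p under 0.05. Tiparp stayed below 0 throughout and was filled in 14 of 20 alternatives, while Ahr stayed above 0 and was filled in 5 of 20.

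Tiparp is also an immediate early gene in many cell types, and 12 such genes (Fos, Fosb, Jun, Junb, Egr1, Egr2, Ier2, Ier3, Atf3, Nr4a1, Dusp1 and Btg2, a list drawn up after the Tiparp values were seen) were set beside it. Their summed level was 9275, 4260.2 and 4552 TPM in epidermal ILCs, 7670.2 and 8516 in dermal CCR6+, 9692 and 9352 in dermal Sca1+, and 15739, 7833 and 10261 TPM in subcutaneous ILCs. Epidermal replicate 1 and subcutaneous replicate 1 stood highest in their groups for both measures, as did dermal CCR6+ replicate 2. In dermal Sca1+ replicates 1 and 2 the measures ran opposite, with Tiparp at 149.3 and 174.1 TPM. Subcutaneous replicate 2 had the lowest early gene sum of its group and replicate 3 the lowest Tiparp. Of the 12, 0 were called higher and 9 lower in epidermal than in subcutaneous ILCs, with a median log2 fold change of -1.48. Over all genes tested, 6.87% were called higher and 13.3% lower, and the median was -0.02. The early genes' part in the Tiparp difference was not tested.

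**Figure D3:**
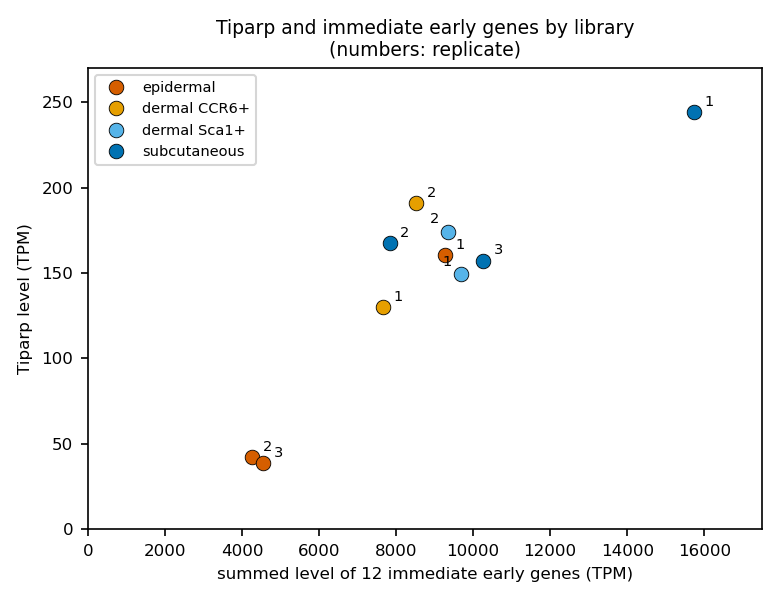
Tiparp level (vertical axis, TPM) against the summed level of 12 immediate early genes (horizontal axis, TPM) in the 10 libraries, coloured by population and numbered by replicate. Epidermal replicates 2 and 3 lie at the lower left, at 42.2 and 38.5 TPM of Tiparp, and subcutaneous replicate 1 at the upper right, at 244.0 TPM.

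Ahrr encodes the AHR repressor, which competes with AHR for ARNT (chromosome 13, 74211118 to 74292331, minus strand). It had 0, 7 and 0 counts in epidermal, 17 and 0 in dermal CCR6+, 0 and 0 in dermal Sca1+, and 0, 1 and 0 counts in subcutaneous libraries. In TPM this was at most 0.28, and 7 of 10 libraries were at 0. A count of 0 allows up to 3 counts, which is 0.0775 to 0.134 TPM in those libraries (counting error only). With no filter beyond 1 count, the edgeR adjusted p of Ahrr lay between 0.49 and 0.94 over the 6 comparisons.

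Cyp1a1, the oxidase whose induction is the standard readout of AHR activity (chromosome 9, 57687928 to 57703824, plus strand), was scarce and uneven. It had 0, 0 and 85 counts in epidermal, 54 and 197 in dermal CCR6+, 47 and 22 in dermal Sca1+, and 0, 24 and 21 counts in subcutaneous libraries. This corresponded to 0, 0 and 2.18 TPM in epidermal, 1.68 and 6.52 in dermal CCR6+, 1.43 and 0.97 in dermal Sca1+, and 0, 0.77 and 0.75 TPM in subcutaneous ILCs. All 4 dermal libraries held Cyp1a1 reads, the highest in dermal CCR6+ replicate 2, while 2 of 3 epidermal libraries and 1 of 3 subcutaneous ones held none. The limit that 3 counts set in those was 0.1002 to 0.107 TPM. Both dermal CCR6+ libraries lay above both dermal Sca1+ ones, as did 18.3% of all genes tested. All dermal libraries lay above all subcutaneous ones, as did 21.3% of genes for dermal CCR6+ and 18.5% for dermal Sca1+ ILCs. Means were 0.73 ± 1.26 TPM in epidermal, 4.10 ± 3.42 in dermal CCR6+, 1.2 ± 0.33 in dermal Sca1+ and 0.51 ± 0.44 TPM in subcutaneous ILCs (SD), all within the spread of their neighbours in rank. The log2 fold change was 2.88 ± 2.06 for dermal CCR6+ over subcutaneous ILCs (SE), with an edgeR adjusted p of 0.451, and 1.75 for dermal CCR6+ over dermal Sca1+ ILCs, with an edgeR adjusted p of 0.877. For epidermal ILCs it was 0.35 ± 1.84 over subcutaneous and -2.54 over dermal CCR6+ ILCs, both resting on the single epidermal library with reads, and neither was called by edgeR.

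Cyp1b1, a related oxidase of polycyclic hydrocarbons and steroids (chromosome 17, 79701537 to 79715061, minus strand), scattered in the same way. It had 47, 0 and 121 counts in epidermal, 213 and 0 in dermal CCR6+, 157 and 146 in dermal Sca1+, and 51, 41 and 0 counts in subcutaneous libraries. The levels were 0.76, 0 and 1.5 TPM in epidermal, 3.19 and 0 in dermal CCR6+, 2.29 and 3.10 in dermal Sca1+, and 0.87, 0.63 and 0 TPM in subcutaneous ILCs. Both dermal Sca1+ libraries were above every epidermal and every subcutaneous one, whereas the dermal CCR6+ pair held the highest value and a 0. For scale, 19.2% of genes lay lower in every epidermal than in every dermal Sca1+ library. Likewise, 18.5% lay higher in every dermal Sca1+ than in every subcutaneous library. The log2 fold change was 2.42 for dermal Sca1+ over subcutaneous ILCs, with an edgeR adjusted p of 0.662, -1.98 for epidermal over dermal Sca1+, and 0.45 ± 1.84 for epidermal over subcutaneous, with an edgeR adjusted p of 0.909. Of the 3 libraries at 0 for Cyp1a1 and the 3 at 0 for Cyp1b1, only epidermal replicate 2 was common to both. Its mitochondrial share, 4.9% of counts, was the highest of the 10 libraries.

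Nqo1, a quinone reductase driven by both AHR and the stress factor NRF2 (chromosome 8, 107388225 to 107403206, minus strand), was low in epidermal and dermal CCR6+ ILCs. It measured 2.61, 0.06 and 4.78 TPM in epidermal, 3.57 and 2.57 in dermal CCR6+, 8.63 and 13.2 in dermal Sca1+, and 3.57, 7.27 and 9.27 TPM in subcutaneous ILCs. Both dermal Sca1+ libraries exceeded every epidermal and dermal CCR6+ library, and epidermal replicate 2 rested on 1 count. Among all genes, 19.2% lay lower in every epidermal than in every dermal Sca1+ library and 20.7% lower in every dermal CCR6+ than in every dermal Sca1+ library. Means were 2.48 ± 2.36 TPM in epidermal, 3.07 ± 0.71 in dermal CCR6+, 10.9 ± 3.23 in dermal Sca1+ and 6.70 ± 2.89 TPM in subcutaneous ILCs (SD). In rank the epidermal and dermal CCR6+ means were neighbours at the low end and did not differ beyond their spread. Its largest log2 fold change in size was -2.25 ± 1.10 (SE) for epidermal over dermal Sca1+ ILCs, with an edgeR adjusted p of 0.230. For dermal CCR6+ over dermal Sca1+ ILCs it was -1.80, with an edgeR adjusted p of 0.649, and for epidermal over subcutaneous ILCs -1.66 ± 1.01, with an edgeR adjusted p of 0.291.

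**Figure D4:**
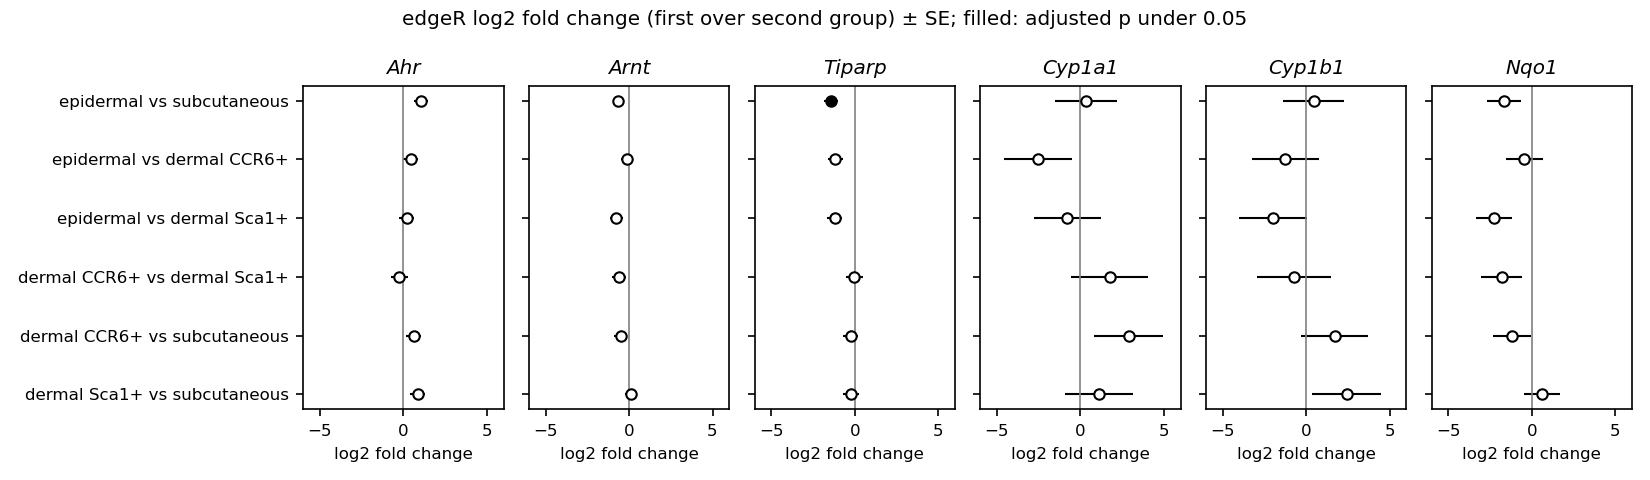
Log2 fold change (horizontal axis) of the 6 tested genes in the 6 comparisons (vertical axis, first population over second), with bars of 1 SE from edgeR. The filled point marks the single call, Tiparp in epidermal over subcutaneous ILCs at -1.42, and the bars of Cyp1a1 and Cyp1b1 are the widest.

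Counted by comparison, calls among the pathway genes were few. Of the 6 tested genes, 0 were called between epidermal and dermal CCR6+ ILCs, where 6.18% of all genes were called, and 0 between epidermal and dermal Sca1+ ILCs, where 11.4% were. The count was 0 between dermal CCR6+ and dermal Sca1+ ILCs (0.642% of all genes), 0 between dermal CCR6+ and subcutaneous ILCs (7.46%) and 0 between dermal Sca1+ and subcutaneous ILCs (2.2%). In the joint edgeR test for any difference among the 4 populations 0 of 6 were called, beside 17.4% of all genes, and Tiparp came closest with an adjusted p of 0.123. At an unadjusted edgeR p under 0.05 there were 4 of 36, namely Ahr and Tiparp for epidermal over subcutaneous ILCs and Tiparp for epidermal over either dermal population. Of all genes, 33.6% met that threshold for epidermal over subcutaneous, 20.1% for epidermal over dermal CCR6+ and 25.8% for epidermal over dermal Sca1+ ILCs. DESeq2 called 1 of the 6, Tiparp, in each of the 3 comparisons of epidermal ILCs and in the joint test, where it called 26.3% (over subcutaneous), 12.3% (over dermal CCR6+), 18% (over dermal Sca1+) and 26.7% (joint test) of all genes. These comparisons share libraries and are not independent. With SEs of 1.84 to 2.29 on the log2 scale, differences of several fold in Cyp1a1 and Cyp1b1 were not detectable in this design.

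The machinery around the receptor differed between layers in its parts. Of 12 genes for the cytoplasmic AHR complex, its chaperones, coregulators and the partner paralogue, 2 were called higher and 4 lower in epidermal than in subcutaneous ILCs by edgeR, with a median log2 fold change of -0.58, against -0.02 over all genes, of which 6.87% were called higher and 13.3% lower.

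Arnt2, a paralogue that can pair with AHR in place of ARNT, showed a sharper split than Arnt. Its level was 34.7, 11.8 and 11.8 TPM in epidermal, 16.2 and 17.3 in dermal CCR6+, 2.63 and 1.61 in dermal Sca1+, and 0.56, 2.27 and 1.12 TPM in subcutaneous ILCs. Every epidermal and dermal CCR6+ library lay above every dermal Sca1+ and subcutaneous one. Taken by single pairs, 21.7% of all genes lay higher in every epidermal than in every subcutaneous library. For dermal CCR6+ ILCs the share was 21.3% over subcutaneous and 18.3% over dermal Sca1+ ILCs. The share for epidermal over dermal Sca1+ ILCs is not given. The log2 fold change was 3.62 ± 0.60 for epidermal over subcutaneous ILCs (SE), with an edgeR adjusted p of 0.00190, and 3.42 ± 0.62 for dermal CCR6+ over subcutaneous ILCs, with an edgeR adjusted p of 0.00881. Both calls held in all 20 alternatives. For epidermal over dermal Sca1+ ILCs Arnt2 had its largest log2 fold change, 4.81, with an edgeR adjusted p of 0.00250. It was also called higher in dermal CCR6+ than in dermal Sca1+ ILCs (edgeR adjusted p = 0.0282), but only in 12 of 20 alternatives, and the call was lost without any 1 of the 4 dermal libraries (edgeR adjusted p up to 0.179).

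Nrip1, a nuclear corepressor that binds AHR, ran the opposite way to Arnt2. It measured 34.9, 54.9 and 28.2 TPM in epidermal, 123.8 and 115.2 in dermal CCR6+, 187.8 and 231.0 in dermal Sca1+, and 500.0, 267.8 and 332.0 TPM in subcutaneous ILCs. The 4 populations did not overlap, and the level climbed from epidermal through dermal CCR6+ and dermal Sca1+ to subcutaneous ILCs. Among all genes, 19.2% lay lower in every epidermal than in every dermal Sca1+ library. For dermal CCR6+ below dermal Sca1+ libraries the share was 20.7%. The share of genes with this order across all 4 was not computed. For epidermal over subcutaneous ILCs the log2 fold change was -3.66 ± 0.29 (SE), with an edgeR adjusted p of 2.02e-05. The coactivator Ncoa3 averaged 12.5 ± 8.12 TPM in epidermal and 42.3 ± 15.9 TPM in subcutaneous ILCs (edgeR adjusted p = 0.00158). Hsp90aa1, an inducible HSP90 chaperone, averaged 377.4 ± 75.4 TPM in epidermal and 638.1 ± 75.4 TPM in subcutaneous ILCs (SD, n = 3 each, edgeR adjusted p = 0.00366).

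Among 20 further genes listed as AHR targets, 17 passed the filter, and 5 were called higher and 6 lower in epidermal than in subcutaneous ILCs, with a median log2 fold change of -0.99, against 6.87% higher, 13.3% lower and a median of -0.02 over all genes. They moved in both directions. Il1r2, the decoy receptor for interleukin 1, averaged 390.4 ± 80.5 TPM in epidermal and 28.2 ± 8.59 TPM in subcutaneous ILCs, a log2 difference of 3.63 ± 0.35, with an edgeR adjusted p of 5.98e-05. Socs2, a feedback inhibitor of cytokine signalling, averaged 11.7 ± 2.89 TPM in epidermal and 214.3 ± 31.9 TPM in subcutaneous ILCs, with a log2 fold change of -4.18 and an edgeR adjusted p of 7.40e-06. Lpcat2, a lysophospholipid acyltransferase, averaged 49.6 ± 5.31 TPM in epidermal and 222.6 ± 71.5 TPM in subcutaneous ILCs (edgeR adjusted p = 0.000116). Nfe2l2, which encodes NRF2, averaged 28.6 ± 7.19 TPM in epidermal and 73.9 ± 27.3 TPM in subcutaneous ILCs (edgeR adjusted p = 0.00487). The count of genes called higher ran from 3 to 5 and that of genes called lower from 5 to 6 when 1 library at a time was left out.

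Aldh3a1 and Serpinb2, picked from that list after their values were seen, are known to be induced by dioxin in other cells. Aldh3a1, an aldehyde dehydrogenase, measured 24.1, 14.0 and 22.0 TPM in epidermal, 42.8 and 39.7 in dermal CCR6+, 48.6 and 26.6 in dermal Sca1+, and 0.99, 4.37 and 3.12 TPM in subcutaneous ILCs. All 7 epidermal and dermal libraries lay above all subcutaneous ones. Taken by single pairs, so did 21.7% of all genes for epidermal, 21.3% for dermal CCR6+ and 18.5% for dermal Sca1+ ILCs. Aldh3a1 was called with edgeR adjusted p of 0.00531, 0.00301 and 0.00766 for epidermal, dermal CCR6+ and dermal Sca1+ over subcutaneous ILCs. The last of these was lost without dermal Sca1+ replicate 1 (edgeR adjusted p = 0.0573). Serpinb2, a protease inhibitor, measured 19.6, 51.0 and 55.1 TPM in epidermal and 4.74, 7.05 and 3.09 TPM in subcutaneous ILCs (edgeR adjusted p = 0.00282). It measured 11.5 and 11.2 TPM in dermal CCR6+ and 10.6 and 6.98 TPM in dermal Sca1+ ILCs. Serpinb2 is also known from keratinocytes, whose marker genes had their highest sum in epidermal libraries as given above. That sum was 5861, 20982 and 21021 TPM in epidermal replicates 1, 2 and 3. The part of keratinocytes in these values was not tested.

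Genes that make, import or destroy AHR ligands from tryptophan came next. Ido1, Ido2 and Slc7a5 stood in this list and among the AHR targets above, so the counts of these lists are not independent. Of 17 listed, 14 passed the filter, and 1 was called higher and 4 lower in epidermal than in subcutaneous ILCs, with a median log2 fold change of -0.56. Over all genes 6.87% were called higher, a share close to that 1 of 14, and 13.3% lower. Slc7a8, an amino acid transporter, measured 2.91, 1.21 and 1.49 TPM in epidermal, 9.05 and 5.01 in dermal CCR6+, 89.1 and 114.4 in dermal Sca1+, and 208.9, 113.4 and 148.0 TPM in subcutaneous ILCs, with an edgeR adjusted p of 4.22e-06 for epidermal over subcutaneous. Every epidermal and dermal CCR6+ library lay below every dermal Sca1+ and subcutaneous one. Taken by single pairs, 19.2% of all genes lay lower in every epidermal than in every dermal Sca1+ library. For dermal CCR6+ below dermal Sca1+ libraries the share was 20.7%. Slc3a2, the shared heavy chain of such transporters, averaged 170.0 ± 60.1 TPM in epidermal and 498.7 ± 97.7 TPM in subcutaneous ILCs (edgeR adjusted p = 0.000142). Its light chain partner Slc7a5 averaged 19.99 ± 3.46 TPM in epidermal and 34.5 ± 10.3 TPM in subcutaneous ILCs (edgeR adjusted p = 0.00479).

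Ido1, which opens the kynurenine branch of tryptophan breakdown, had 0 counts in all 7 epidermal and dermal libraries and 98.7, 51.1 and 39.5 TPM in subcutaneous ILCs. For epidermal over subcutaneous ILCs its edgeR adjusted p was 0.000137, and no fold is given against groups at 0. Ido1 is also made by dendritic cells, whose marker list was highest in the same subcutaneous libraries, and that part was not tested. Il4i1, an oxidase that makes AHR ligands from tryptophan, was chosen here after its values were seen. It measured 9.52, 6.93 and 11.6 TPM in epidermal, 4.09 and 2.57 in dermal CCR6+, 1.74 and 2.57 in dermal Sca1+, and 0.23, 1.5 and 0.51 TPM in subcutaneous ILCs, with an edgeR adjusted p of 0.0139 for epidermal over subcutaneous. That call was lost without subcutaneous replicate 3 (edgeR adjusted p = 0.0533).

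NRF2 shares Nqo1 as a target, and 19 other NRF2 genes were all measured. Nfe2l2 stood in this list and among the AHR targets above, and is counted in both. In epidermal against subcutaneous ILCs 1 was called higher and 6 lower, with a median log2 fold change of -0.20, beside 6.87% higher and 13.3% lower over all genes. Ftl1, the light chain of the iron store ferritin, averaged 1601 ± 363 TPM in epidermal and 3782 ± 515 TPM in subcutaneous ILCs (edgeR adjusted p = 0.000151). Gstm1, a glutathione transferase, averaged 29.1 ± 8.03 TPM in epidermal and 115.5 ± 27.2 TPM in subcutaneous ILCs (edgeR adjusted p = 0.000756). Txnrd1, thioredoxin reductase, went the other way at 120.3 ± 46.1 TPM in epidermal and 55.7 ± 14.8 TPM in subcutaneous ILCs (SD, n = 3 each, edgeR adjusted p = 0.0194), a call lost without epidermal replicate 3 or subcutaneous replicate 2 or 3 (highest edgeR adjusted p 0.0719).

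ARNT also pairs with the hypoxia factors. Of 7 other ARNT partners 3 passed the filter, and 0 were called higher and 2 lower in epidermal than in subcutaneous ILCs, where 13.3% of all genes were called lower. Hif1a averaged 58.3 ± 20.4 TPM in epidermal and 102.3 ± 21.9 TPM in subcutaneous ILCs, with an edgeR adjusted p of 0.0106. Epas1 averaged 0.52 ± 0.27 TPM in epidermal and 6.74 ± 0.84 TPM in subcutaneous ILCs (SD, n = 3 each), with an edgeR adjusted p of 0.00333. Tiparp belongs to the PARP enzymes, and of 14 other members of that family 0 were called higher and 2 lower, Parp14 and Parp12, a share close to the 13.3% of all genes called lower. The Parp14 call was lost without epidermal replicate 2 or 3 or subcutaneous replicate 1 or 2 (highest edgeR adjusted p 0.104), and the Parp12 call without any 1 of the 6 epidermal and subcutaneous libraries (highest edgeR adjusted p 0.107). The median log2 fold change of the family was -0.17.

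Finally, 15 ILC lineage and effector genes linked to AHR were set beside the receptor. In epidermal against subcutaneous ILCs 3 were called higher and 8 lower, with a median log2 fold change of -2.05, beside 6.87% higher and 13.3% lower over all genes. The type 2 cytokine Il5 averaged 99.9 ± 57.4 TPM in epidermal and 2502 ± 443 TPM in subcutaneous ILCs (edgeR adjusted p = 7.54e-06). Gata3, the factor that specifies type 2 ILCs, averaged 224.7 ± 41.9 TPM in epidermal and 624.0 ± 200.5 TPM in subcutaneous ILCs (edgeR adjusted p = 0.000184). Il22, a cytokine linked to AHR in gut ILCs, belongs to the further AHR targets above rather than to these 15. It is named as an exception, since it was not called (edgeR adjusted p = 0.463 for epidermal over subcutaneous). Il22 measured 24.5, 6.98 and 8.88 TPM in epidermal, 11.8 and 14.2 in dermal CCR6+, 0 and 0 in dermal Sca1+, and 1.12, 105.4 and 1.22 TPM in subcutaneous ILCs, so that 1 subcutaneous library held the highest value of all.

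The genes whose profile over the 10 libraries was most like each pathway gene were ranked among 6971 candidates by Pearson correlation of log2 CPM (counts scaled to library size). For Tiparp they were Gabarapl1 (0.98), Ifrd1 (0.97), Atf4 (0.97), Zc3h12a (0.97) and Wsb1 (0.96). For Ahr they were Ap5m1 (0.93), Crot (0.92), Exosc9 (0.91), Ppp2r1b (0.91) and Ccna2 (0.90). For Arnt the closest was Iqsec1 (0.90), for Cyp1a1 Txndc9 (0.98), for Cyp1b1 Rlf (0.89) and for Nqo1 Stk25 (0.96). Among the pathway genes the same measure was -0.51 for Ahr with Tiparp, 0.06 for Ahr with Arnt, -0.02 for Ahr with Cyp1a1, 0.11 for Tiparp with Cyp1a1 and 0.09 for Cyp1a1 with Cyp1b1. The 10 points share 4 populations, so these values describe the libraries and are not tests.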

How the data were processed

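Per the labels' protocols, RNA of sorted skin ILCs was amplified with a SMART kit for very small inputs and tagged with Nextera XT. The submitters' processing notes name Trimmomatic, STAR, RSEM and build mm10, with versions and settings not given in the sources used here. The deposited tables hold, per the file headers, RSEM expected counts per gene (7.2% to 8.39% of values not whole) and TPM, which RSEM corrects for effective length. FPKM values, also deposited by the authors, were not used. The kit does not mark strand, so reads of Tiparp cannot be told apart from those of an overlapping pseudogene on the other strand (15.0 to 58.2 counts per library). Ahr overlaps an opposite-strand lincRNA that has 0 rows in the tables, so reads from it could count as Ahr. Arnt overlaps a pseudogene on its own strand (at most 10 counts). Symbols and coordinates came from GENCODE M21, and promoter sequences from RefSeq, which matched 6 of 7 genes.

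Expected counts were rounded and tested by edgeR 4.0.16 (R 4.3.3), with filterByExpr (count minimum 10, 16208 genes kept), TMM and 1 quasi-likelihood fit of 4 groups. Tests were two-sided with Benjamini-Hochberg adjustment over all genes and a threshold of 0.05. The SE is the absolute log2 fold change over the square root of F. The biological coefficient of variation was 0.62. DESeq2 1.42.0, limma 3.58.1, other filters and scalings, 2-group fits, replicate blocks and leaving out libraries were tried as alternatives. The fit was tested on simulated data. No library pair of 1 population agreed within sampling noise. The members and lists were chosen with earlier results of these data known. All 7 members are named. From each other list up to 4 called genes of highest mean TPM are named, and the exceptions are marked. Nearest patterns are the top 5 genes with a mean of at least 20 CPM. Results for some items are not reported here.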

Additional observations from a re-analysis of the deposited data

How the results depend on the processing

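Over 827 single-gene values under an alternative, 773 kept direction and side of the threshold, 28 turned round, 20 newly passed and 6 no longer passed. Tiparp stayed lower in epidermal than in subcutaneous ILCs in all 20 alternatives and was called in 14. These included all 10 other than the fits that left out just 1 library. Among those 10, 1 left out both epidermal replicate 1 and subcutaneous replicate 1. With a replicate block by title number its log2 fold change was -1.56 (adjusted p = 0.0293). Of 13 same-numbered pairs of deviations from group means, 1 had a correlation over 0.1 (range -0.038 to 0.114). In a group of 2 libraries the deviations mirror each other, so this check cannot decide whether the numbers pair libraries.

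For epidermal over subcutaneous ILCs, 2 pathway genes (Tiparp and Ahr) were called in place of 1 by limma with a pseudocount of 1 or 0.1, with no filter beyond 1 count, and with a replicate block that groups libraries by runs of consecutive library numbers. Leaving out 1 library at a time gave 0 to 1, and without subcutaneous replicate 2 the 1 was Ahr. For epidermal over dermal CCR6+, epidermal over dermal Sca1+ and the joint test, 1 (Tiparp) was called in place of 0 by DESeq2, with no filter, with the block by runs, and without both epidermal replicate 1 and subcutaneous replicate 1. Leaving out 1 library gave 0 to 1, the 1 without epidermal replicate 1. The cause was not tested.

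Log2 fold changes that turned round were mostly near 0 or of genes with libraries at 0. For epidermal over subcutaneous, Cyp1a1 was -0.57 with limma and a pseudocount of 0.1, -2.30 with the title block and -0.47 with the block by runs, and Cyp1b1 was -0.64 with the title block. With the title block Tiparp was 0.00132 for dermal CCR6+ over dermal Sca1+ and Arnt was -0.0415 for dermal Sca1+ over subcutaneous. With the block by runs Tiparp was 0.0764 for dermal CCR6+ and 0.10 for dermal Sca1+ over subcutaneous. Leaving out 1 library at a time, epidermal over subcutaneous ranged from -7.04 to 0.95 for Cyp1a1 and from -0.71 to 1.04 for Cyp1b1. Epidermal over dermal CCR6+ ranged from -1.53 to 0.10 for Nqo1, from -0.36 to 0.14 for Arnt and from -2.42 to 8.45 for Cyp1b1, and epidermal over dermal Sca1+ from -0.21 to 0.88 for Ahr. Dermal CCR6+ over dermal Sca1+ ranged from -0.28 to 0.20 for Tiparp, from -0.67 to 0.43 for Ahr, from -10.4 to 0.28 for Cyp1b1 and from -1.05 to 0.0676 for Arnt. Dermal CCR6+ over subcutaneous ranged from -8.00 to 2.70 for Cyp1b1, and dermal Sca1+ over subcutaneous from -0.57 to 0.55 for Arnt. Fitted values against a group left with 0 counts are no bound.

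Counts of all genes called moved more. DESeq2 gave 2001 for epidermal over dermal CCR6+, 557 for dermal CCR6+ over dermal Sca1+, 1193 for dermal Sca1+ over subcutaneous, 2919 for epidermal over dermal Sca1+, 2319 for dermal CCR6+ over subcutaneous and 4322 jointly. No filter gave 2028, 647, 1328, 2918, 2292 and 4925 in that order, against 1001, 104, 357, 1848, 1209 and 2820 as reported. Limma gave 891 and 743 (pseudocounts 1 and 0.1) for dermal Sca1+ over subcutaneous, and 1978 and 1899 for dermal CCR6+ over subcutaneous. Fits of only the 2 groups gave 618 for epidermal over dermal CCR6+, 47 for dermal CCR6+ over dermal Sca1+ and 560 for dermal Sca1+ over subcutaneous, and the title block 64 and 203 for the last pair. Leaving out 1 library gave 35 to 155 for dermal CCR6+ over dermal Sca1+, 157 to 420 for dermal Sca1+ over subcutaneous, 1192 to 1865 for epidermal over dermal Sca1+ and 435 to 1372 for dermal CCR6+ over subcutaneous. For epidermal over subcutaneous limma with a pseudocount of 1 called 2051 higher and 2230 lower, against 1113 and 2155 as reported. Limma with a pseudocount of 0.1 moved the median of all genes there to 0.11, against -0.02 as reported. No scaling turned Tiparp or Ahr round in that comparison.

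Ahrr had at most 17 counts in a library, so depth limits what can be said of it. Cyp1a1 (0 to 197 counts) and Cyp1b1 (0 to 213) scattered between libraries of 1 population. Counts of the pathway lists under the same alternatives were computed after seeing the data.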
